A study of Mus musculus with 38 samples.

Results

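The 35 genes described here drive or mark cell division: the G1 cyclins, the proteins that license origins and copy DNA, enzymes that supply nucleotides, the cyclins and kinases of mitosis, spindle and centromere proteins, and the marker gene Mki67. They were taken as a list of symbols, chosen with earlier results of these data known, and all 35 were found among the 21441 genes of each table. RNA-seq was made from intestinal epithelium of wild-type C57BL6/J mice that were vitamin D deficient, vehicle controls included. One arm received the vitamin D hormone 1,25(OH)2D3 by intraperitoneal injection at 10 ng per g of body weight, the other 0.1 ml of a propylene glycol and ethanol vehicle, and tissue was taken 4 h later. The treatment protocol gives an age of 12 to 14 weeks, whereas the ages listed with the samples run from 10 to 13.3 weeks, and both sexes were pooled per the labels. Villi and crypts came from the proximal small intestine, freed with EDTA and separated on a 70 µm filter, and the colon epithelium was scraped off. The 38 libraries were split into 6 vehicle and 7 vitamin D for villi, 6 of each for crypts, and 6 vehicle and 7 vitamin D for colon. No label says that the libraries of a group came from separate mice, and the p-values then rest on a library spread that may be technical.

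Intestinal epithelium is renewed from the crypts, where stem cells and their transit-amplifying progeny divide, while the cells that cover the villi have left the cycle. Genes of DNA synthesis are switched on as cells enter S phase, largely through E2F factors, and genes of mitosis follow in G2 through the DREAM and MuvB complexes with B-Myb and FoxM1, which read the CHR element beside CCAAT boxes bound by NF-Y. Ligand-bound vitamin D receptor is known in many cell types to slow proliferation, with the cyclin kinase inhibitors and Myc among the genes studied in that role.

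Depth was 13.82 to 17.43 M reads (units of 1000000) a library, as read from the steps between low values. By medians, the labelled tissues followed their markers in the vehicle libraries, in summed FPKM (fragments per kilobase of transcript, scaled to library depth) as deposited. The sum of 20 enterocyte genes had a median of 62100 in villi and 25010 in crypts. That of 12 Paneth cell genes, which mark the crypt base, had medians of 866 and 22450. In colon, 9 colonocyte genes summed to 16380. Libraries varied in these markers: Paneth genes ranged from 91.73 to 3609 over the villus vehicle libraries, and enterocyte genes from 8226 to 60060 over the crypt vehicle libraries. Vehicle crypt replicates 5 and 6, at 49100 and 60060, lay within the villus vehicle range of enterocyte genes, 46150 to 69690. Vitamin D colon replicates 1 and 2 had muscle, fibroblast and endothelium sums of 2345 and 7745 where the other 11 colon libraries had 25.62 to 425.7. In bulk tissue, fewer dividing cells and less RNA per cell cannot be told apart.

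Levels across tissues come first, in the vehicle libraries. The 3 tables were treated as normalised separately, so FPKM were rescaled to a sum of 1000000 in each library. These values, which are per length, are set side by side as a description with no test. In crypts the median member stood at 35.73 rescaled FPKM, in colon at 15.17 and in villi at 3.655. Of the 35 genes, 34 were highest in crypts and 32 followed the order crypts, colon, villi. The exceptions to the order were Rrm2 and Nusap1, whose vehicle means were lowest in colon, and Plk1, whose mean was highest there. For Nusap1 the colon and villus means were close, at 13.1 and 13.44, and the libraries overlapped.

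**Figure D1:**
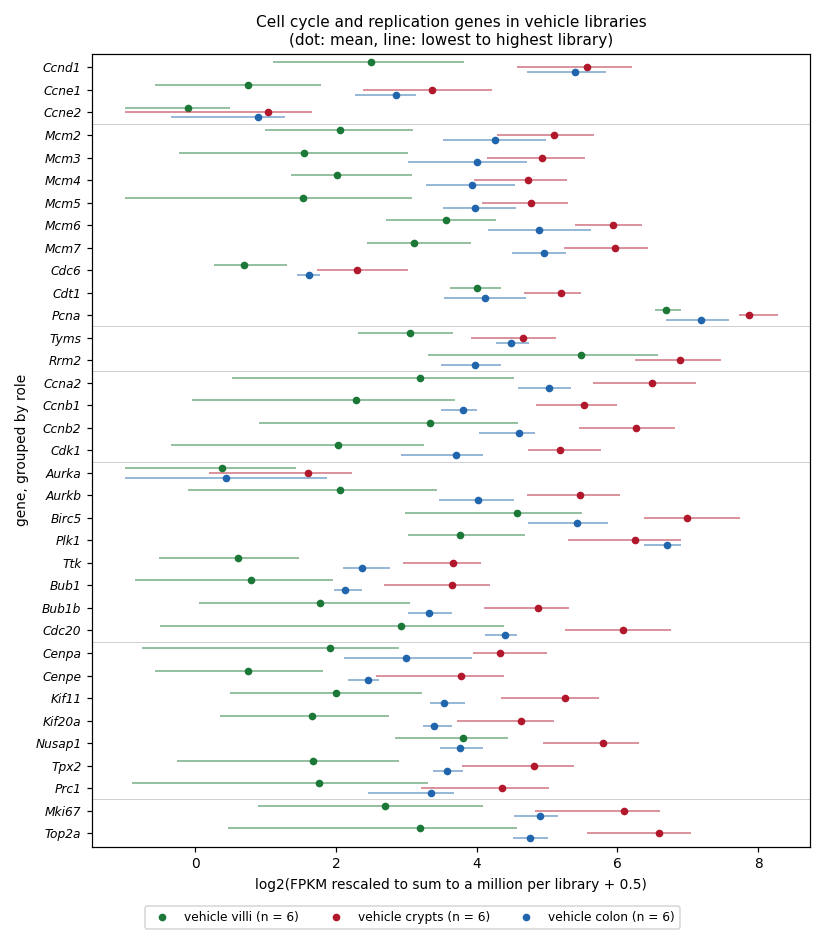
Rescaled FPKM of the 35 genes in the vehicle libraries of villi, crypts and colon (6 each), on a log2 axis after adding 0.5; dots are means and lines run from the lowest to the highest library, with genes grouped by role. Crypt dots lie farthest right for 34 genes, and the villus lines are the longest for most mitotic genes.

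Among the G1 cyclins, Ccnd1, which activates Cdk4 and Cdk6, was the highest in every tissue, at 47.11 ± 18.3 rescaled FPKM in crypts (SD, n = 6), 41.52 ± 10.9 in colon and 5.144 ± 4.47 in villi. Its crypt and colon libraries overlapped, and every library of both lay above every villus library. Pcna, the clamp that holds DNA polymerase on its template, led the replication genes at 233.4 ± 37.8 in crypts, 146 ± 28.9 in colon and 103 ± 9.74 in villi. It had the smallest crypt to villus difference of all members, a log2 ratio of 1.18, and no crypt library overlapped a library of the other tissues. Mcm3, a subunit of the replicative helicase, had the largest, at 3.63.

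Rrm2, the small subunit of ribonucleotide reductase, was the higher of the nucleotide enzymes in crypts at 117.6 ± 44.1 and in villi at 44.25 ± 36.7, but stood at 15.18 ± 3.18 in colon, below Tyms, thymidylate synthase, at 21.92 ± 3.29. The colon libraries of Rrm2 lay below every crypt library and overlapped those of villi. Of the cyclins of S, G2 and M phase with Cdk1, Ccna2 was highest in crypts at 89.68 ± 31.8 and in colon at 31.98 ± 5.81, and Ccnb2 in villi at 9.615 ± 8.37. Birc5, the survivin subunit of the chromosomal passenger complex, was highest of the kinase and checkpoint genes in crypts at 127 ± 46.7 and in villi at 23.39 ± 15.5. In colon that place went to Plk1, a kinase of mitotic entry, at 103.4 ± 16.4 against 75.31 ± 28.6 in crypts, with overlapping libraries. Nusap1, a microtubule-binding spindle protein, was highest of its group in all 3 tissues, at 55.14 ± 20.6 in crypts, 13.44 ± 5.96 in villi and 13.1 ± 2.15 in colon. Top2a, the topoisomerase that untangles chromosomes, stood at 95.64 ± 35.5 in crypts and 8.644 ± 8.09 in villi, and in colon Mki67, which coats mitotic chromosomes, was the higher at 29.23 ± 4.81.

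The median log2 ratio of crypts to villi was 3.18, with all crypt libraries above all villus libraries for 31 of 35 genes; over all genes tested in either tissue the share was 31.1%. Ccne2, Rrm2, Aurka and Prc1 were the 4 that overlapped. Colon stood above villi by a median of 1.70 against 0.72 over all genes, with 18 genes fully apart (of all genes, 49.5% were), a share near that background. Against crypts, colon stood lower by a median log2 ratio of -1.27, and 17 genes were fully apart against 8.18% of all genes. By role, the median of that last ratio was -0.19 for the G1 cyclins, -0.85 for the origin and replication genes, -1.57 for the nucleotide enzymes (Rrm2 at -2.95 and Tyms at -0.18), -1.60 for the cyclins of S, G2 and M phase with Cdk1, -1.58 for the kinase and checkpoint genes (from -1.69 to 0.46), -1.38 for the centromere and spindle genes and -1.54 for Mki67 and Top2a. Scaled to 8 general epithelial genes in place of the library sum, the colon median was 0.72 above villi and -2.19 against crypts, so the size of the colon values depends on the scale. On that scale 29 of 35 genes followed the order crypts, colon, villi, and Cdt1, Pcna, Aurka and Birc5 joined Rrm2 and Nusap1 below villi in colon.

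The authors' deposited tables hold a test of tissue against tissue among the vitamin D libraries. At an adjusted p under 0.05 the authors' deposited table of crypts and villi had 35 of 35 genes higher in crypts, with a median log2 fold change of 3.61, from 1.23 for Pcna to 4.24 for Ttk, a spindle checkpoint kinase; 31.6% of all genes were higher. For colon and villi the authors' deposited table called 29 higher and 0 lower in colon (37.8% of all genes were higher and 27% lower). The 6 not called were Ccne2, Cdc6, Cdt1, Pcna, Rrm2 and Cenpa. Nusap1, whose vehicle mean was lowest in colon, was among the 29, at 1.15 (adjusted p = 0.00234 in the authors' deposited table). For colon and crypts 32 were lower in colon and 0 higher in the authors' deposited table (23.9% of all genes were lower and 32.6% higher), and Ccne2, Aurka and Plk1 were not called. Rrm2 had the lowest value of that comparison at -2.60 and Plk1 the highest at -0.08 in the authors' deposited table.

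The promoters of these genes, which rise and fall together across tissues, are shown because their motifs divide by role. RefSeq (GRCm38.p6) gave a promoter, taken as 250 bases before to 50 after the gene's start, for 28 of the 35 genes. The sequences below run 5′ to 3′ on the gene's strand, with the motifs searched in capitals: E2F sites (TTTCCCGC, TTTCGCGC, TTTGCCGC or TTTGGCGC), the CHR (TTTGAA) and CCAAT, on both strands, with overlaps allowed. Mcm6 (chr1:128359656-128359955, minus strand) and Mcm7 (chr5:138171834-138172133, minus strand) stand for the replication genes. Cdk1 (chr10:69352863-69353162, minus strand), the kinase of mitotic entry, and Top2a (chr11:99024140-99024439, minus strand) stand for the mitotic ones. Nusap1 (chr2:119618048-119618347, plus strand) and Rrm2 (chr12:24708004-24708303, plus strand) are the 2 whose vehicle mean was lowest in colon.
Mcm6: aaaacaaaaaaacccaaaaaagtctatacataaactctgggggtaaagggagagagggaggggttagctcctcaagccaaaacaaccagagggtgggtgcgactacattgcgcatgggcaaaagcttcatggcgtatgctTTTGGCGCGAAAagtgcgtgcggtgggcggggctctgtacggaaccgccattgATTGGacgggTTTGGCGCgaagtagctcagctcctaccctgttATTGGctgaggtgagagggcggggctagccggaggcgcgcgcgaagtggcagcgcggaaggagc
Mcm7: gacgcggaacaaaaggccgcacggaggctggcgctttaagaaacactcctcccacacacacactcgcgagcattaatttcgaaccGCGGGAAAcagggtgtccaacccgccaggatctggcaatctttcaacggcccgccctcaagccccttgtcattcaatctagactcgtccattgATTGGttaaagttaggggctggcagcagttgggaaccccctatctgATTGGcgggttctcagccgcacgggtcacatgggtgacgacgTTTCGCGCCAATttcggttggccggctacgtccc
Cdk1: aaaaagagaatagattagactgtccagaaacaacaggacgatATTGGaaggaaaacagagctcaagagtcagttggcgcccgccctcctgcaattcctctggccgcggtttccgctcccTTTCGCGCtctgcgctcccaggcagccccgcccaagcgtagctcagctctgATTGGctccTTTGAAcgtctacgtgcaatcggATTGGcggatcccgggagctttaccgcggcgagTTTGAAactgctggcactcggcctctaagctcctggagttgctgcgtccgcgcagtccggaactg
Top2a: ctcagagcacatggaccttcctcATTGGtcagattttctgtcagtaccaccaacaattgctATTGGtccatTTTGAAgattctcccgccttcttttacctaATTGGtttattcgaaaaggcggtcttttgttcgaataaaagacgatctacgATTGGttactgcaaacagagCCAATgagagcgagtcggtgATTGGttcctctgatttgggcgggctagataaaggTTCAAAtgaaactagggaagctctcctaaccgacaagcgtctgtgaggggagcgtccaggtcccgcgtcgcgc
Nusap1: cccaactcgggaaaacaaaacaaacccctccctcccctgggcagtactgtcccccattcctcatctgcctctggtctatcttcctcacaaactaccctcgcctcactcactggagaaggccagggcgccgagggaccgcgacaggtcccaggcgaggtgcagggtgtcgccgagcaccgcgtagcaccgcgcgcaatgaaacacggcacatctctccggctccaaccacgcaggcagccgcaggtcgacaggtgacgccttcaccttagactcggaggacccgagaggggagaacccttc
Rrm2: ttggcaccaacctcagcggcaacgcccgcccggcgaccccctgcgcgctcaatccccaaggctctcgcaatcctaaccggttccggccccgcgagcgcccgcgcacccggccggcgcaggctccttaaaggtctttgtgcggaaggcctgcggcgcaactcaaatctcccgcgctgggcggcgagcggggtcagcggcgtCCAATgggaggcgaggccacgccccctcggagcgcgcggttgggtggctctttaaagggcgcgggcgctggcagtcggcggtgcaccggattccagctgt

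An E2F site was found in 6 of 10 promoters of replication and nucleotide genes (60.0%) and in 1 of 17 of the mitotic genes (5.88%), that of Cdk1; among all 27025 promoters the share was 2.32%. The CHR showed the opposite division, at 1 of 10 for replication genes, Mcm2, and 12 of 17 for mitotic genes (70.6%), against 18.1% of all promoters. All 12 of those mitotic promoters also held CCAAT, and 7.12% of all promoters held both. Mcm6 held 3 E2F matches, 2 of them facing each other over shared bases, and in Mcm7 an E2F match runs into a CCAAT. Nusap1 held none of the motifs and Rrm2 a single CCAAT. The direct repeat of the vitamin D response element was in 0 of 28 member promoters and 3 of all promoters. A match is a match of letters, and the absence of one says only that these letters are not in this window.

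In villi, 1 member fell after 1,25(OH)2D3 and none rose. Nusap1 had 4.218, 6.566 and 12.63 FPKM as the lowest, median and highest of 6 vehicle libraries, and 0.656, 2.197 and 4.947 over 7 vitamin D libraries. Of the 7, 6 lay below every vehicle library, and replicate 1, at 4.947, lay above vehicle replicates 5 and 6. The log2 fold change, on log2(FPKM + 0.5) here and below, which understates the change of low genes, was -1.48 ± 0.33 (SE), a fold of 0.359, with an adjusted p of 0.0285 in limma with Benjamini-Hochberg adjustment over 9706 genes. Of all genes tested, 2.47% were called in either direction and 0.299% were called lower.

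The fall of Nusap1 was seen within both column naming styles of the table, which may mark separate runs, though no label says so. In the plainly named libraries (4 vitamin D, 4 vehicle) Nusap1 was at 2.077 to 4.947 against 5.879 to 12.63 FPKM in vehicle. In the others, only 3 vitamin D and 2 vehicle libraries, it was at 0.656 to 2.444 against 4.218 to 4.878. The 8 plainly named libraries alone gave -1.44 (limma adjusted p = 0.09). The call was lost without any 1 of 7 of the 13 libraries, with log2 fold changes from -1.64 to -1.27 and an adjusted p up to 0.0671 without vehicle replicate 1. The authors' deposited table gave -1.63 with an adjusted p of 0.00131, where 3.6% of all genes were called. Depth was enough to count it: the lowest vitamin D library held about 31.9 reads of Nusap1 and the lowest vehicle library 204.3.

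Rrm2 moved beside it and did not pass the test. Its lowest, median and highest values were 5.98, 16.61 and 56.19 FPKM in vehicle and 3.42, 6.235 and 20.95 in vitamin D villi. Replicates 1 and 2 were the 2 highest of both arms, and 3 of 7 vitamin D libraries lay below every vehicle library. The log2 fold change was -1.25 ± 0.57 (limma adjusted p = 0.392). Deviations of same-numbered villus libraries correlated at 0.102 to 0.465, and 3 of 6 pairs correlated best with their own number. In a fit blocked on that number Rrm2 was called at -1.09 (limma adjusted p = 0.0484) and Nusap1 at -1.44 (0.007). There 2 members fell where 3.51% of all genes were called. By the titles, vitamin D replicate 7 has no partner and carries no weight in that fit. The column names instead pair it with vehicle replicate 6.

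Pcna ran from 54.32 to 66.54 FPKM in vehicle (median 59.01) and from 36.2 to 65.32 in vitamin D villi (median 43.75). Apart from vitamin D replicate 6, every vitamin D library was below every vehicle library. The log2 fold change was -0.36 ± 0.12 (limma adjusted p = 0.199), and without vitamin D replicate 6 it was -0.44 and called (0.0349).

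**Figure D2:**
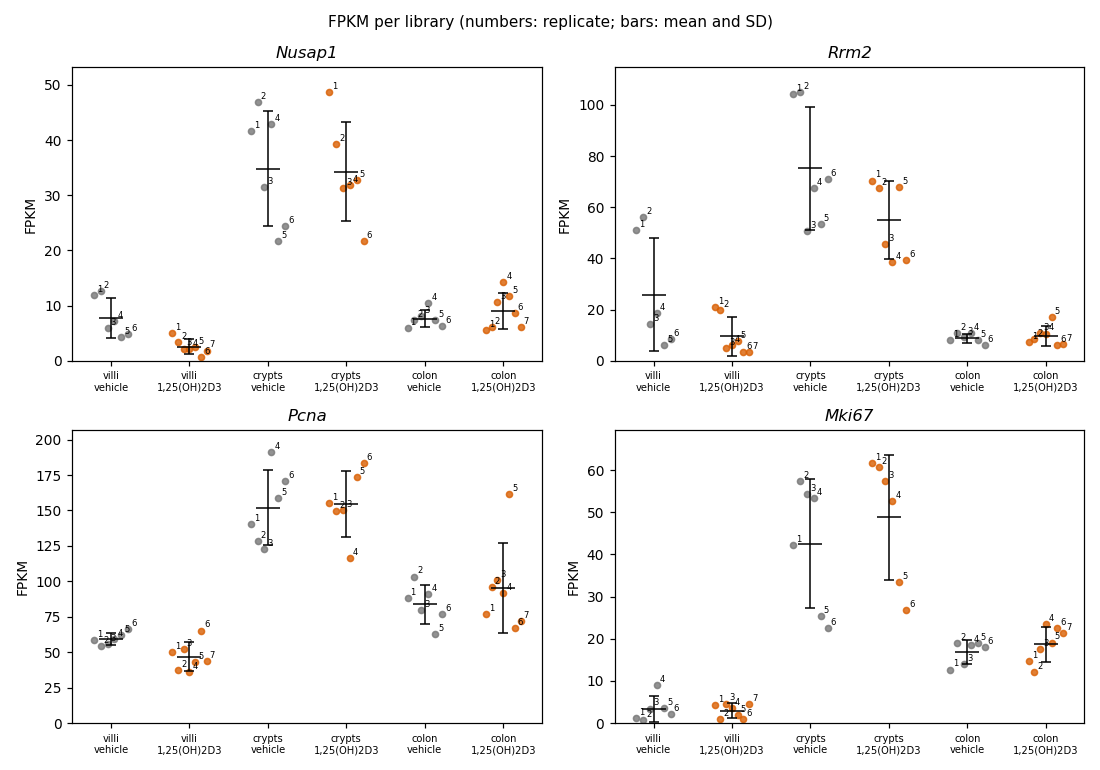
FPKM of Nusap1, Rrm2, Pcna and Mki67 in every library of villi, crypts and colon, vehicle in grey and 1,25(OH)2D3 in orange, with replicate numbers and the mean and SD as bars. Nusap1 in villi sits lower in 6 of 7 vitamin D libraries than in any vehicle library, and Rrm2 and Nusap1 are highest in vehicle villus replicates 1 and 2, where Mki67 is the lowest of the vehicle arm.

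The other proliferation genes gave no call in villi. Mki67 ranged from 0.7979 over 2.83 to 9.116 FPKM (lowest, median, highest) in vehicle and from 0.8942 over 3.492 to 4.65 after vitamin D, with a log2 fold change of -0.02 ± 0.47 (limma adjusted p = 0.994). Vehicle replicate 4 was the single high library, and the arms overlapped throughout. Top2a was at 0.5196, 4.076 and 12.81 in vehicle and 0.9048, 3.94 and 5.1 after vitamin D, a change of -0.25 ± 0.55 (adjusted p = 0.91).

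Cdk1 was at 0.171, 1.609 and 4.943 FPKM and at 0.2032, 1.256 and 2.305, a change of -0.34 ± 0.49 (limma adjusted p = 0.849). Mcm2, a helicase subunit, was at 0.8793, 1.74 and 4.421 and at 0.6592, 1.485 and 2.453 (-0.28 ± 0.31, adjusted p = 0.777). Ccnd1 was at 0.9897, 2.19 and 7.468 and at 1.148, 2.613 and 4.008 (-0.08 ± 0.37, adjusted p = 0.959). In each of the 3 the highest value was vehicle replicate 4, and both arms overlapped.

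Only Mcm6, another helicase subunit, and Cenpa, the histone H3 variant of centromeres, had a positive fold change in villi. Mcm6 went from 3.572, 6.806 and 10.3 FPKM to 5.034, 6.534 and 9.614 (0.16 ± 0.22, limma adjusted p = 0.84), with wide overlap. Cenpa went from 0.05417, 1.728 and 3.824 to 0.4611, 1.821 and 3.232 (0.05 ± 0.47, adjusted p = 0.98), and its sign turned to -0.10 with the replicate block. Over the 26 members tested, 24 fold changes were negative against 52.8% of all genes, with a median of -0.22 against -0.01, and 3 were lower at an unadjusted p under 0.05 where 4.66% of all genes were.

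The direction of the villus members as a group depended on which libraries were used. Without vehicle replicate 4 their median was 0.06 and 16 of 26 were positive, and in the plainly named libraries, which include it, the median was 0.043, also with 16 positive. In vehicle replicate 4 the Paneth sum was the highest of all 13, at 3609, and the enterocyte sum the lowest, at 46150. Ranked from the top by the mean log2 level of the members, the first 9 of 13 villus libraries came in the same order as by the Paneth sum. The sum of the crypt base stem cell genes did not give that order: vehicle replicate 5 ranked 2 by members and 11 by that sum, and vitamin D replicate 2 ranked 13 and 4. Of 12 Paneth genes found, 10 reached 1 FPKM in some villus library and none was at 0 in all of them; 9 of the 10 tested had a negative fold change (median -0.38) and 0 were called. The part of Paneth cell RNA in the members' values was not tested.

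Nusap1, Rrm2 and Pcna did not follow that order. In vehicle villus replicates 1 and 2, where Mki67 was at 1.107 and 0.7979 FPKM, Nusap1 stood at 11.86 and 12.63 and Rrm2 at 50.97 and 56.19, the highest values of their arm. The ratio of Nusap1 to Mki67 ran from 0.796 to 15.8 over the vehicle villus libraries, and from 0.58 to 1.09 over the vehicle crypt libraries. For Tpx2, another spindle protein, the ratio to Mki67 stayed between 0.247 and 0.629 in vehicle villi and between 0.319 and 0.48 in vehicle crypts. Pcna to Mki67 ran from 6.52 to 68.1 in vehicle villi and from 2.23 to 7.62 in vehicle crypts. These ratios were chosen after the values were seen.

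The 9 members below the filter in villi (1 FPKM in at least 6 libraries) were Ccne1, Ccne2, Mcm5, Cdc6, Aurka, Ttk, Bub1, Cenpe and Prc1, with group means of 0.0877 to 1.65 FPKM. Aurka, a centrosomal kinase, was listed at 0 in 2 of 6 vehicle and 6 of 7 vitamin D libraries. Few reads lay behind it, with a median of 14.5 over the vehicle libraries. The authors' deposited table did not call it (adjusted p = 0.733).

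**Figure D3:**
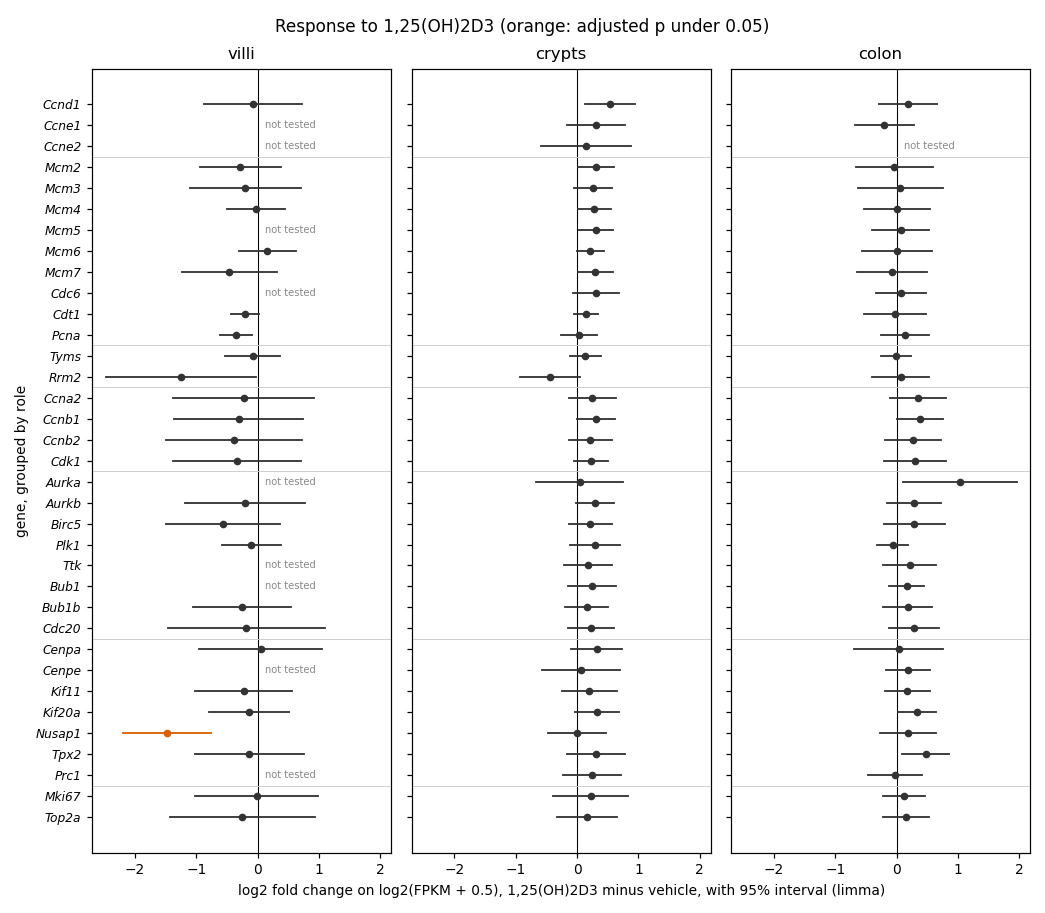
Log2 fold change of each of the 35 genes, 1,25(OH)2D3 minus vehicle, with its 95% interval from limma in villi (6 and 7 libraries), crypts (6 and 6) and colon (6 and 7). Nusap1 in villi, in orange, is the single call, and most crypt points lie to the right of 0.

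In crypts, where these genes are most abundant, no member was called by limma, against 1.46% of all 10733 genes. All 35 were tested: 33 fold changes were positive (47.6% of all genes were), the median was 0.23 against -0.01, and 7 were higher at an unadjusted p under 0.05 where 8.22% of all genes were. The intervals of all 35 lay within 1 log2 unit of 0. The authors' deposited table also called 0 of 35, where 4.28% of all genes were called.

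Ccnd1 had the smallest p. It was at 18.68, 28.62 and 45.35 FPKM (lowest, median, highest) in vehicle and at 34.65, 41.53 and 53.54 in vitamin D crypts. Vehicle replicate 4 was the 1 vehicle library inside the vitamin D range, and the other 5 lay below it. The log2 fold change was 0.54 ± 0.19, a fold of 1.45 (limma adjusted p = 0.191). In a fit blocked on the replicate number, taken to pair the crypt libraries, Ccnd1 was called at the same fold (limma adjusted p = 0.0422). It was the only member called, where 4.14% of all genes were. The titles share only that number, and 3 of 6 crypt pairs correlated best with their own number.

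The 6 helicase subunits Mcm2 to Mcm7 changed by 0.22 to 0.31, and 5 of them had an unadjusted p under 0.05. Mcm2 was at 15.36, 20.71 and 31.09 FPKM in vehicle and 23.55, 25.67 and 30.22 after vitamin D (0.31 ± 0.13, limma adjusted p = 0.302). Mcm4 was at 12.14, 16.08 and 23.74 and at 19.05, 19.85 and 21.25 (0.28 ± 0.12, adjusted p = 0.302), and Mcm5 at 13.24, 16.3 and 24.09 and at 19.03, 20.8 and 25 (0.31 ± 0.13, adjusted p = 0.289). In Mcm2 and Mcm4 all vitamin D libraries lay above all vehicle libraries but replicate 4, which was the highest library of both arms; in Mcm5 vehicle replicate 5 overlapped as well.

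**Figure D4:**
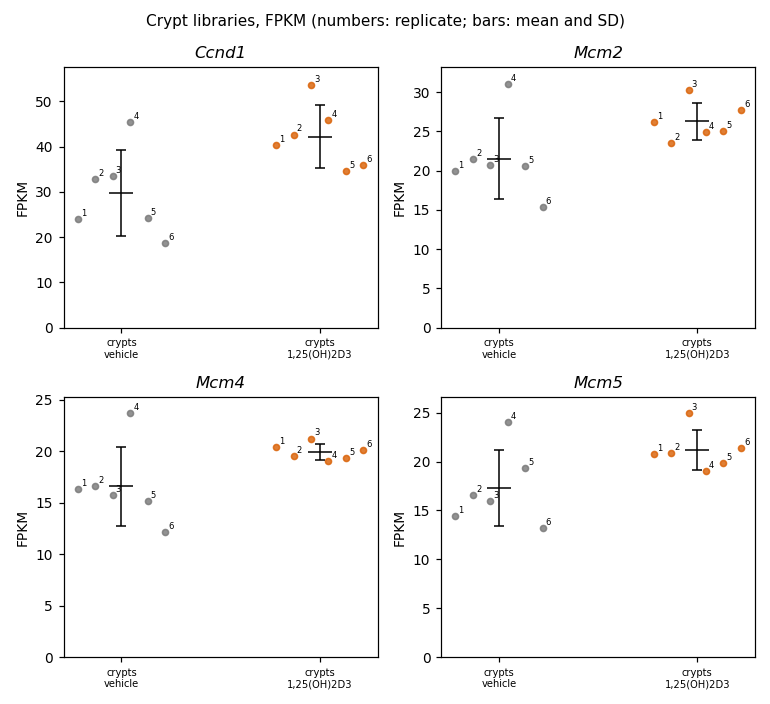
FPKM of Ccnd1, Mcm2, Mcm4 and Mcm5 in the 12 crypt libraries, vehicle in grey and 1,25(OH)2D3 in orange, with replicate numbers and the mean and SD as bars. Vehicle replicate 4 lies within or above the vitamin D libraries in each plot, and most other vehicle libraries lie below them.

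Vehicle replicate 4 decided the crypt count. Without it, 10 of 35 members were called and higher, where 9.92% of all genes were called: Ccnd1, Mcm2, Mcm3, Mcm4, Mcm5, Mcm6, Mcm7, Cdk1, Aurkb and Birc5, with log2 fold changes of 0.29 to 0.67. That library had the lowest enterocyte sum of the crypts, 8226, and vehicle replicates 5 and 6 the highest, 49100 and 60060. The 2 libraries with the most enterocyte RNA were the 2 with the lowest members, and the 2 with the least were the 2 with the highest. Without vehicle replicates 5 and 6, an exclusion chosen after seeing the data, the members' median fold change was 0.07, with 23 of 35 positive. These 2 were all the vehicle crypt libraries outside the plain naming style, and vitamin D replicates 5 and 6 of that style were kept. Treatment and naming style are therefore mixed in that fit, and leaving out the lowest vehicle libraries lowers the fold changes by itself. Of 20 enterocyte genes, all at 1 FPKM or more in every crypt library, 19 had a negative fold change after vitamin D (median -0.51). By limma 0 were called, and the authors' deposited table called 1 lower, Sis, at -0.85 with an adjusted p of 0.00434. All 11 Paneth genes tested in crypts had a positive fold change (median 0.26), and 0 were called. Of 8 crypt base stem cell genes tested there, 5 were negative and 3 positive (median -0.18), and 0 were called by limma. The authors' deposited table called 1 of them lower, Lgr5, at -0.99 with an adjusted p of 0.0198. The part of any of these cell types in the members' values was not tested.

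**Figure D5:**
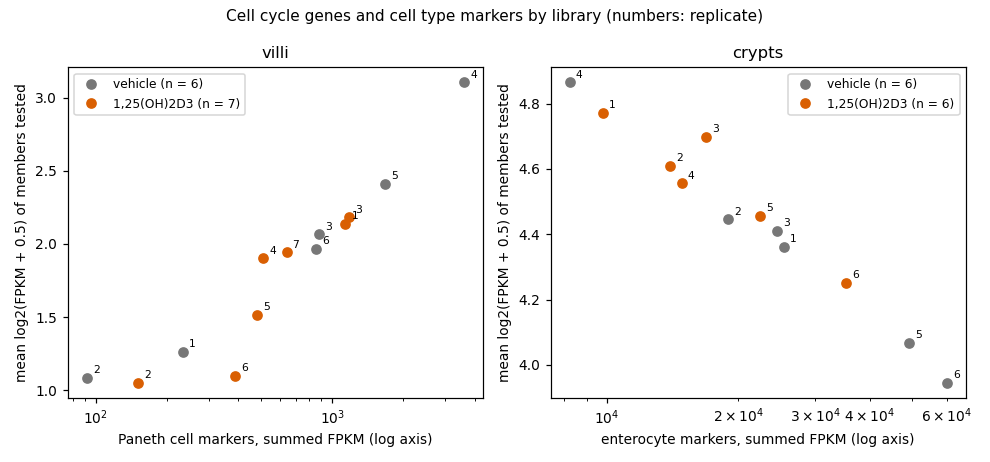
Mean log2(FPKM + 0.5) of the members tested against the summed FPKM of Paneth cell genes in the 13 villus libraries (left) and of enterocyte genes in the 12 crypt libraries (right), on log axes, with replicate numbers. Libraries with more Paneth RNA in villi had higher members, and crypt libraries with more enterocyte RNA had lower ones, in both arms.

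Rrm2 went against the other members in crypts. It was at 50.73, 69.26 and 105.1 FPKM in vehicle and 38.71, 56.42 and 70.46 after vitamin D, with 3 of 6 vitamin D libraries below every vehicle library. Its log2 fold change was -0.44 ± 0.23 (limma adjusted p = 0.383). Nusap1 was at 21.68, 36.54 and 46.89 and at 21.74, 32.28 and 48.73, a change of -0.01 ± 0.22 (adjusted p = 0.993), with the arms fully overlapping.

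Mki67 was at 22.44, 47.75 and 57.41 FPKM in vehicle crypts and 26.76, 54.99 and 61.58 after vitamin D (0.22 ± 0.28, limma adjusted p = 0.745). Top2a was at 37.84, 64.06 and 80.93 and at 42.27, 72.06 and 84.78 (0.16 ± 0.23, adjusted p = 0.77). Both arms overlapped, and replicates 5 and 6 were the 2 lowest of each arm in both genes. Without vehicle replicates 5 and 6, but with vitamin D replicates 5 and 6 kept, their signs turned, to -0.14 for Mki67 and -0.12 for Top2a. Leaving the lowest libraries out of the vehicle arm alone raises its mean, so the direction of that shift was set by the choice. In the plainly named libraries, which lack replicates 5 and 6 of both arms, neither sign turned. Cdk1 was at 18.38, 21.02 and 33.42 and at 22.35, 25.82 and 30.17 (0.22 ± 0.13, adjusted p = 0.445), and Pcna at 123, 149.4 and 191.1 and at 116.7, 152.7 and 183.6 (0.03 ± 0.13, adjusted p = 0.934). Vehicle replicate 4 was the highest library of both genes.

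In colon 34 members were tested, Ccne2 being below the filter, and 0 were called by limma, against 0.823% of all 11540 genes. The authors' deposited table also called 0, where 1.64% of all genes were called. Of the 34 fold changes 27 were positive (50% of all genes were), with a median of 0.16 against 0.00, and 4 were higher at an unadjusted p under 0.05 where 4.17% of all genes were. By role, the median was 0.33 for the cyclins of S, G2 and M phase with Cdk1, 0.25 for the mitotic kinases and checkpoint genes and 0.01 for the origin and replication genes.

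Tpx2, which builds spindle microtubules and activates Aurka, had the smallest p. It ran over 5.578, 6.462 and 8.499 FPKM in vehicle and 5.722, 8.647 and 14.05 in vitamin D colon, and 4 of 7 vitamin D libraries lay above every vehicle library. The log2 fold change was 0.48 ± 0.18 (limma adjusted p = 0.411). Kif20a, a kinesin of cytokinesis, was at 5.039, 5.922 and 6.472 and at 5.493, 6.867 and 10.33, again with 4 of 7 above (0.34 ± 0.15, adjusted p = 0.561). Aurka was listed at 0 in 4 of 6 vehicle libraries with a highest value of 1.947, and ran from 0.4511 to 2.653 after vitamin D (1.03 ± 0.43, adjusted p = 0.53). Few reads lay behind those Aurka values: the highest library of each arm held about 49 and 69.9.

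The smallest p among negative colon values belonged to Ccne1, the cyclin of S phase entry, Plk1 and Mcm7. Ccne1 was at 2.406, 4.103 and 5.243 FPKM in vehicle and 1.856, 3.076 and 5.651 after vitamin D (-0.20 ± 0.22, limma adjusted p = 0.895). Plk1 was at 48.99, 60 and 69.62 and at 43.14, 59.93 and 67.54 (-0.06 ± 0.12, adjusted p = 0.93), and Mcm7 at 12.3, 19.22 and 20.54 and at 9.119, 13.87 and 35.1 (-0.07 ± 0.26, adjusted p = 0.97). The arms overlapped in all 3 genes.

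Mki67 was at 12.7, 18.23 and 19.03 FPKM in vehicle colon and 12.05, 19.1 and 23.49 after vitamin D (0.13 ± 0.16, limma adjusted p = 0.899). Top2a was at 12.38, 15.15 and 19.28 and at 11.52, 18.48 and 23.99 (0.16 ± 0.17, adjusted p = 0.895), and Cdk1 at 3.946, 7.171 and 10.39 and at 5.774, 7.931 and 13.72 (0.30 ± 0.23, adjusted p = 0.848). Of 7 vitamin D libraries, 4 lay above and 1 below the vehicle range for Mki67, 3 above and 2 below for Top2a, and 2 above and 0 below for Cdk1. Pcna was at 63.11, 84.29 and 103.4 and at 66.78, 92.03 and 161.4 (0.14 ± 0.18, adjusted p = 0.899), Mcm2 at 6.161, 10.78 and 16.81 and at 6.021, 9.293 and 23.51 (-0.03 ± 0.29, adjusted p = 0.989), and Ccnd1 at 14.27, 25.83 and 30.52 and at 17.69, 23.77 and 43.11 (0.19 ± 0.22, adjusted p = 0.896). Vitamin D replicate 5 was the highest library of all 3.

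Vitamin D colon replicates 1 and 2, the muscle-rich libraries, were the lowest of their arm for Mki67 and Top2a. All 10 tested genes of the muscle, fibroblast and endothelium list had a positive fold change in colon (median 0.86, 0 called), and none of the 13 found was at 0 in all libraries. Without these 2 libraries, again chosen after seeing the data, the members' median was 0.29 with 33 of 34 positive, and still 0 were called. Both are vitamin D libraries, ranked 12 and 9 from the top among the colon libraries by the mean level of the members. The lowest of all, vehicle replicate 6, was kept, so leaving them out moves the fold changes up by itself.

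The response was then compared between tissues by contrasts of contrasts in limma over the 38 libraries. That fit had no term for the mouse, so any tissues taken from the same mouse were treated as independent. Colon minus villi, 1 of 26 members was called, where 0.467% of all genes were: Nusap1, with a log2 fold change of 0.18 in colon and -1.48 in villi, a difference of 1.66 ± 0.39 (adjusted p = 0.0352). It was not called in a fit with the libraries of those 2 tissues only (0.0805) or with plainly named libraries (0.151), nor without vehicle villus replicate 4 (1.66, limma adjusted p = 0.0506), a fit added after seeing the data. Rrm2 differed by 1.32 ± 0.57 and Pcna by 0.50 ± 0.22 (adjusted p = 0.544 for both). All 3 had an unadjusted p under 0.05, which 8.38% of all genes had, and 24 of 26 differences were positive against 49.5% of all genes. Without that library 19 were, with a median of 0.15 in place of 0.43, and with plainly named libraries 12 were, with a median of -0.02.

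Crypts minus villi, 0 of 26 were called, where 0.0316% of all genes were, and 1 had an unadjusted p under 0.05 against 6.04% of all genes. That gene was Nusap1, with a difference of 1.47 ± 0.40 (limma adjusted p = 0.511), and with the replicate block it was called at 1.43 (0.0172). Mcm7, at 0.76 ± 0.42, and Pcna, at 0.39 ± 0.22, followed (adjusted p = 0.734 for both). All 26 differences were positive against 43% of all genes, with a median of 0.45. Without vehicle villus replicate 4 the median was 0.20 with 24 positive, and with plainly named libraries 0.16 with 20 positive. Colon minus crypts, 0 of 34 were called where 0.0675% of all genes were, 0 had an unadjusted p under 0.05 against 4.22%, and 15 were positive against 52%. The 3 smallest p belonged to Aurka (1.00 ± 0.53), Ccne1 (-0.51 ± 0.39) and Plk1 (-0.35 ± 0.27). The 2 differences from villi use the same villus libraries.

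Genes around the members, from 4 lists, gave 0 calls by limma in any tissue. Of 38 other replication genes, 24 of 27 tested were negative in villi, 36 of 38 positive in crypts and 27 of 37 positive in colon. Of 46 other genes of G2 and mitosis, 24 of 31 were negative in villi, 43 of 46 positive in crypts and 42 of 44 positive in colon, so that they had the signs of the members in each tissue. The 23 other G1 cyclins, kinases and inhibitors were mixed, with 8 of 20, 10 of 22 and 16 of 22 positive. Of 18 cell cycle transcription factors and pocket proteins, 7 of 11 were positive in villi, 15 of 18 in crypts and 8 of 17 in colon. At an unadjusted p under 0.05, those 4 lists in this order had 3, 5, 1 and 4 genes higher and 1, 1, 0 and 2 lower in crypts, where 8.22% and 7.05% of all genes were. In villi 0, 1, 1 and 0 were higher and 1, 1, 0 and 0 lower (7.51% and 4.66% of all genes), and in colon 3, 3, 2 and 1 were higher and 0, 0, 2 and 2 lower (4.17% and 3.88%).

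The authors' deposited table called 2 of those 18 factors in crypts, where it called 4.28% of all genes, and they are named for that call. Myc, a driver of growth and G1 progression, went from 14.85 ± 4.59 FPKM (SD, n = 6) to 27.22 ± 7.49 (n = 6), a log2 fold change of 0.85 ± 0.22 with an adjusted p of 0.079 in limma. The authors' deposited table has 0.00849 for it. E2f5, a repressive E2F, went from 15.39 ± 1.69 to 19.04 ± 1.27 FPKM (0.30 ± 0.08, limma adjusted p = 0.0996), with 0.0224 in the authors' deposited table.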

How the data were processed

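RNA-seq was made of 38 libraries. The authors deposited 3 FPKM tables, 1 for each tissue, in which every library has its own column per the file headers. Their deposited comparison tables hold the mean signal of each gene, the log2 fold change and its error, a test score, and p-values before and after adjustment. Per the submitters' processing notes, the tools named were kallisto 0.45.0, DESeq 1.28.1 and DESeq2, with build mm9; their roles are not given in the sources used here. Promoter coordinates are RefSeq's own, in GRCm38.p6, and were not joined to the files by position.

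A gene was tested in a tissue where at least 6 libraries reached 1 FPKM, on log2(FPKM + 0.5) with limma 3.58.1 in R 4.3.3, with a mean-variance trend, as vitamin D minus vehicle with no covariate. The p-values are two-sided, with Benjamini-Hochberg adjustment over every gene in the fit and a threshold of 0.05; the script was tested on simulated data. Tables were treated as normalised separately because fold changes between tissues in the authors' deposited tables were offset from those of the FPKM by a median of -0.48 (crypts and villi), -0.68 (colon and villi) and -0.08 (colon and crypts). Library depth was recovered from the FPKM and the mean level: 86.9% to 93.6% of values under 12 reads were within 0.05 of a whole number. No count model was run. The direction of the authors' tissue comparisons was read from the FPKM.

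Members, lists and the rule for named genes were chosen with earlier results of these data known. By that rule each tissue names the called members, the 3 smallest p in each direction, and Mki67, Pcna, Mcm2, Ccnd1, Cdk1 and Top2a; a difference between tissues names the called members or the 3 smallest p; levels name the highest member of each group. Of 223 genes on the other lists 220 were found, 2 of them under an older symbol. Titles give the same replicate numbers in both arms. Deviations from the group means of same-numbered libraries correlated at 0.102 to 0.465 in villi and 0.119 to 0.545 in crypts, above 0.1 in all 6 pairs of each. The numbers were taken to pair the libraries there, although only 3 of 6 pairs in each correlated best with their own number. No range of unlike-numbered pairs was set beside 0.1, so the blocked fits rest on an assumed pairing. In colon 3 of 6 pairs were above 0.1. Alternatives were the pseudocount, the filter, recentring, the block, the column naming style and leaving out libraries.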

Additional observations from a re-analysis of the deposited data

Results flagged for a closer look

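Of 64 groups of library values of named members, 4 held a library far from the rest of its group, and chance flags about 1 in 20 groups. Mki67 in vehicle villus replicate 4 stood at 9.116 FPKM, with the next library at 3.579. Cdk1 in vehicle crypt replicate 4 stood at 33.42 against 22.71. In vitamin D colon replicate 5, Pcna stood at 161.4 against 100.9 and Mcm2 at 23.51 against 12.34. The response of Nusap1 differed between tissues, by 1.66 on the log2 scale in colon minus villi (limma adjusted p = 0.0352); without vehicle villus replicate 4 the adjusted p in limma was 0.0506.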

How the results depend on the processing

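Pseudocounts of 0.1 and 1 and recentred library medians turned no sign of a named member and moved no count of calls by over 1.5 times. In villi, where 1 of 26 members was called, 0 were without a filter and 0 in the plainly named libraries, whose members had a median of 0.043 and which called 97 genes in all. In those libraries Mki67 (0.22), Ccnd1 (0.16), Cdk1 (0.029) and Top2a (0.16) turned positive. Leaving out 1 library gave 0 to 2 called members, medians of -0.43 to 0.061, and Nusap1 from -1.64 to -1.27. The shares of all genes called in those villus fits are not given here. The same removals gave signs in both directions for Cenpa (-0.32 to 0.28), Mki67 (-0.27 to 0.31), Ccnd1 (-0.27 to 0.22) and Top2a (-0.64 to 0.10) in villi, for Nusap1 (-0.13 to 0.11) and Pcna (-0.027 to 0.11) in crypts, and for Plk1 (-0.12 to 0.001), Mcm7 (-0.25 to 0.061) and Mcm2 (-0.24 to 0.11) in colon. In crypts removals gave 0 to 10 called members and 107 to 1065 genes. Over all genes the plainly named crypt libraries called 84, the naming style as a covariate 391 and the fit without the 2 enterocyte-rich libraries 103, where Mki67 (-0.14) and Top2a (-0.12) turned; the plainly named libraries put Pcna at -0.013. In colon the fit without the muscle-rich libraries called 58 genes and turned Plk1 (0.041), Mcm7 (0.15) and Mcm2 (0.037), and the covariate put Mcm2 at 0.0011. The authors' deposited tables called 436 genes in villi, 550 in crypts and 246 in colon, with Cenpa at -0.085 in villi and Mcm7 at 0.032 and Mcm2 at 0.018 in colon. For the difference of response, the plainly named libraries called 1 gene for crypts minus villi, 25 for colon minus villi, with 0 members, and 3 for colon minus crypts; a fit of only both tissues called 0 members for colon minus villi, and one without vehicle villus replicate 4 also 0 (Nusap1 at 1.66). Relative to epithelial genes the level of colon was 0.72 above villi and -2.19 against crypts. The cause was not tested for any of these. The villus members were measured least precisely, with a median SE of 0.395 against 0.175 in crypts and 0.21 in colon. In villi 23 of 26 intervals included 0.

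The replicate block by the titles' numbers called 2 members in villi, with Cenpa at -0.10, 1 member and 444 genes in crypts, and 147 genes in colon, where the samples share only a number and Mcm7 came to 5e-04 and Mcm2 to 0.078. In colon 3 of 6 pairs correlated above 0.1, and 1 of 6 correlated best with its own number. In villi and in crypts 3 of 6 pairs correlated best with their own number. For the difference of response the block called 1 member of 10 genes for crypts minus villi, 2 of 152 for colon minus villi (Nusap1, and Rrm2 at 1.24) and 24 genes for colon minus crypts. The block by the numbers of the column names called 3 members in villi (Nusap1, Rrm2 and Pcna), with Mki67 at 0.17 and Ccnd1 at 0.0049. The share of all genes called in that fit is not given here, so this count stands without its background. The block changed no other call of a named member. Unpaired libraries carry no weight in these fits.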
